A study of Sus scrofa domesticus with 150 samples.

Results

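The collagens examined here are those outside the main fibrils of the dermis: chains of basement membranes, beaded filaments, hexagonal networks, fibril-associated molecules and cell membranes. The members were chosen by symbol. Of 30461 genes in the count table, 44 carried the symbol of a collagen alpha chain, and 33 remained after COL1A1, COL1A2, COL3A1, COL5A1, COL5A2, COL5A3, COL7A1, COL11A1, COL12A1, COL14A1 and COL17A1 had been set aside. For 9 of the 33 the symbol stood in the table itself, and for 24 it was read from the matching protein that the table describes. They fell into 6 type IV chains, 5 type VI chains, 3 chains of types VIII and X and 2 multiplexins. A further 8 were fibril-associated and related collagens, 2 were transmembrane collagens and 3 were others. The others include COL6A4, a type VI chain by its symbol that was not counted among the 5. The choice by symbol also kept 4 chains that form fibrils (COL2A1, COL11A2, COL24A1 and COL27A1), which are given last. COL13A1 was not analysed here.

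The study followed the closure of full-thickness excisional wounds on the backs of 6 female pigs of a mixed Yorkshire background, under dressings, with an antibiotic ointment put on biopsy sites and no treatment or genetic change that set groups apart. The skin cut out on day 0 gave 6 samples, 1 per animal, and 72 wounds each gave 1 biopsy of the wound edge and 1 of the wound center, 150 samples in all. On days 1 to 7, 9, 11 and 13 each location had 6 samples, from 2 wounds in each of 3 animals, and on days 15, 16, 19 and 21 it had 3, from 1 wound in each of 3 animals. One set of 3 animals was sampled on days 1, 3, 5, 7, 11, 15 and 21 and the other on days 2, 4, 6, 9, 13, 16 and 19, so that a difference between neighbouring days and a difference between sets of animals cannot be told apart. Because paired wounds come from 1 animal, p-values measure a spread that is partly within animals. A biopsy mixes all cells of the tissue, and fewer cells of a type cannot be told apart from less RNA per cell.

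Type IV collagen is the network-forming collagen of basement membranes, the thin sheets that lie under epithelia and around blood vessels, fat and muscle cells. The COL4A1 and COL4A2 chains are used in nearly all of these sheets, whereas the COL4A5 and COL4A6 chains belong to a smaller set that includes the sheet beneath the epidermis. Collagen VI forms beaded filaments next to basement membranes, the multiplexins XV and XVIII are core proteins of basement membrane zones, collagen VIII forms networks in vessel walls and in Descemet's membrane of the eye, and the fibril-associated collagens sit on the surface of larger fibrils.

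Libraries held 13133379 to 24895572 counts. Levels are given as counts scaled to a common library total (CPM), and differences as log2 fold changes with standard error (SE) and Benjamini-Hochberg adjusted p from edgeR, with a call at an adjusted p below 0.05. The members took 0.533% of all counts in day 0 skin (median; range 0.403% to 0.751%), 0.272% (0.168% to 0.431%) at the day 1 edge, 0.869% (0.741% to 1.31%) at the day 1 center and 2.23% (1.56% to 2.79%) at the day 11 center. In 7 states 1 library stood apart from its replicates: day 2 center 2, day 3 edge 6, day 3 center 4, day 5 edge 6, day 6 center 5, day 9 center 5 and day 11 center 1. On day 3, edge sample 6 held 389 CPM of 6 basal keratinocyte markers together, against 8437 to 23273 in the other edge samples, and center sample 4 held 15721 CPM against 332 to 1486 in the other center samples. For these markers each of the 2 samples thus lay within the range of the other location. On that day 0 genes of 14581 were called between edge and center (1 by DESeq2), 1667 at an unadjusted p below 0.05. Without both libraries 1919 genes were edge-higher and 711 center-higher of 14548, among them COL4A6, COL6A5, COL18A1 and COL23A1 at the edge and COL4A1, COL4A2 and COL15A1 at the center. Day 11 center 1 likewise held 23200 CPM of keratinocyte markers against 247 to 497 in its replicates. Skeletal muscle markers reached 74284 CPM in day 2 center 2, 55210 CPM in day 6 center 5 and 34845 CPM in day 9 center 5. Other libraries held them too, up to 41925 CPM at the day 9 edge, 23966 CPM in another day 2 center sample and 22312 CPM in a day 3 center sample. Where leaving out the libraries that stand apart ended a call between edge and center that is quoted for a day, both values are given.

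COL4A1, the ubiquitous type IV chain, stood higher at the wound center from the first day. In day 0 skin it ranged from 289 to 619 CPM, with a median of 446. At the day 1 edge it ranged from 178 to 974 CPM (median 319), and at the day 1 center from 2595 to 4757 CPM (median 3077). All 6 center samples thus lay above all 6 edge samples and above all day 0 samples. The edge was lower than the center by 2.96 on the log2 scale (SE 0.40, adjusted p = 0.00021). The edge then climbed to 1365 to 2787 CPM (median 2095) on day 7, when the center held 3035 to 5325 CPM (median 3932), and the difference was -0.92 (SE 0.19, adjusted p = 0.0025). On day 11 the edge held 1422 to 2267 CPM and the center 2777 to 5055 CPM, the highest center median at 4092, again without overlap. By day 21 the 3 edge samples held 814, 1021 and 1171 CPM and the 3 center samples 1617, 1392 and 1736 CPM, still without overlap with each other or with day 0 skin.

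COL4A1 was called center-higher on 9 of 14 days, and the center sample was the higher one in 71 of 72 wounds. The partner chain COL4A2 was called on 8 days, with the center higher in 69 wounds. Leaving out the libraries that stand apart gave 10 and 9 days, and on day 3 the adjusted p for COL4A1 went from 0.51 to 0.025. In one fit of all 150 samples, the mean difference of edge minus center over the 14 days was -1.07 for COL4A1 (SE 0.08, adjusted p = 3.4e-26) and -1.02 for COL4A2 (SE 0.08, adjusted p = 9.8e-22). The gap narrowed with time: from days 1 and 2 to days 11 and 13 it moved toward the edge by 1.41 on the log2 scale for COL4A1 (SE 0.25, adjusted p = 2.7e-06) and by 1.39 for COL4A2 (SE 0.27, adjusted p = 2.6e-05). From days 1 and 2 to days 7 and 9 COL4A1 rose by 1.81 at the edge (SE 0.18, adjusted p = 1e-15), and its value at the center was 0.40 (SE 0.17, adjusted p = 0.051). At the center it fell by 0.86 from days 7 and 9 to days 19 and 21 (SE 0.22, adjusted p = 0.00085), and COL4A2 by 0.77 (SE 0.24, adjusted p = 0.0068).

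COL4A1 and COL4A2 lie head to head, COL4A1 on the minus strand at 541937 to 681952 and COL4A2 on the plus strand at 681402 to 846885 of the same contig, and their annotated spans share 551 bases. Whether the counting used strand is not given in the sources used here. Per length (FPKM), COL4A1 stood above COL4A2 by a ratio of 1.05 to 2.18 over the 150 samples, with a median of 1.45. The ratio was thus above 1 in every library, edge, center and uninjured skin alike.

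COL4A5 and COL4A6 showed the opposite order and were the chains with the higher level at the edge. COL4A5 ranged from 88.7 to 110 CPM in day 0 skin (median 101). At the edge its medians stayed between 74.3 and 125 CPM on all 14 days, and no edge state was called against day 0, whereas fits of each pair of states alone called 1 higher and 2 lower. At the center it fell to 13.2 to 81.5 CPM (median 34.4) on day 1 and to 2.40 to 11.8 CPM (median 10.4) on day 7, when the edge held 54.1 to 135 CPM. The day 7 difference of edge minus center was 3.41 (SE 0.35, adjusted p = 7.3e-06), and all 6 edge samples lay above all 6 center samples.

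COL4A6 was lower in level and moved further. It ranged from 42.1 to 64.4 CPM in day 0 skin, from 1.46 to 24.5 CPM at the day 1 center and from 1.73 to 3.94 CPM at the day 7 center, against 21.2 to 66.7 CPM at the day 7 edge. That day's difference was 3.96 (SE 0.31, adjusted p = 7e-07). Against day 0, 1 edge state of COL4A6 was called lower, whereas fits of each pair of states alone called 7 lower. Both genes were called edge-higher on 9 days, each of them at least 2-fold, and stood higher at the edge in 66 of 72 wounds. On day 11 the call rested on wide spread: center sample 1 held 121 CPM of COL4A5 and 53.4 CPM of COL4A6 against highest values of 15.2 and 4.53 CPM in its replicates. Without that library the adjusted p fell from 0.039 to 2.2e-06 for COL4A5 and from 0.039 to 8.7e-07 for COL4A6.

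Late in healing the center came back. COL4A5 rose at the center by 3.01 from days 7 and 9 to days 19 and 21 (SE 0.37, adjusted p = 2.1e-11), and COL4A6 by 3.62 (SE 0.40, adjusted p = 5.1e-13). The 3 center samples of day 19 held 130, 82.2 and 83.6 CPM of COL4A5 and those of day 21 69.7, 63.2 and 66.5 CPM, close to the 93.3, 64.6 and 74.3 CPM of the day 21 edge. On the days between, wounds differed. On day 15 the center samples held 111, 76.4 and 18.2 CPM, and on day 16 they held 122, 7.89 and 32.6 CPM, a spread over which no difference was called. The sum of the 6 basal keratinocyte markers found had a center median of 415 CPM on day 7, 20438 CPM on day 19 and 7563 CPM on day 21. Its median was 14636 CPM in day 0 skin and 21937 CPM at the day 7 edge. At the day 1 edge it was 27727 CPM, whereas in the single fit no edge state of either chain was called above day 0. The part of these markers in the result was not tested.

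The 2 pairs therefore parted within one family of proteins. Per length, COL4A1 stood 5.81 times above COL4A5 in day 0 skin (median; range 3.37 to 8.73). At the day 7 center the ratio was 509 (398 to 1718), and at the day 7 edge 22.4 (17.4 to 60.2). It was 29 (27.5 to 32.6) at the day 21 center, below all day 7 center values and above all those of uninjured skin. COL4A6 and COL4A5 are also neighbours on opposite strands, with 1408 bases between their annotated spans. The ratio of COL4A5 to COL4A6 per length was 1.36 in day 0 skin (1.33 to 1.67) and 5.52 at the day 1 center (2.64 to 7.44), with no overlap.

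The last pair of type IV chains, COL4A3 and COL4A4, was near the limit of detection. COL4A3 did not exceed 0.833 CPM and COL4A4 did not exceed 2.17 CPM in any library, and neither passed the filter on low counts on any day. These chains are best known from the basement membranes of the kidney glomerulus and the lung.

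**Figure D1:**
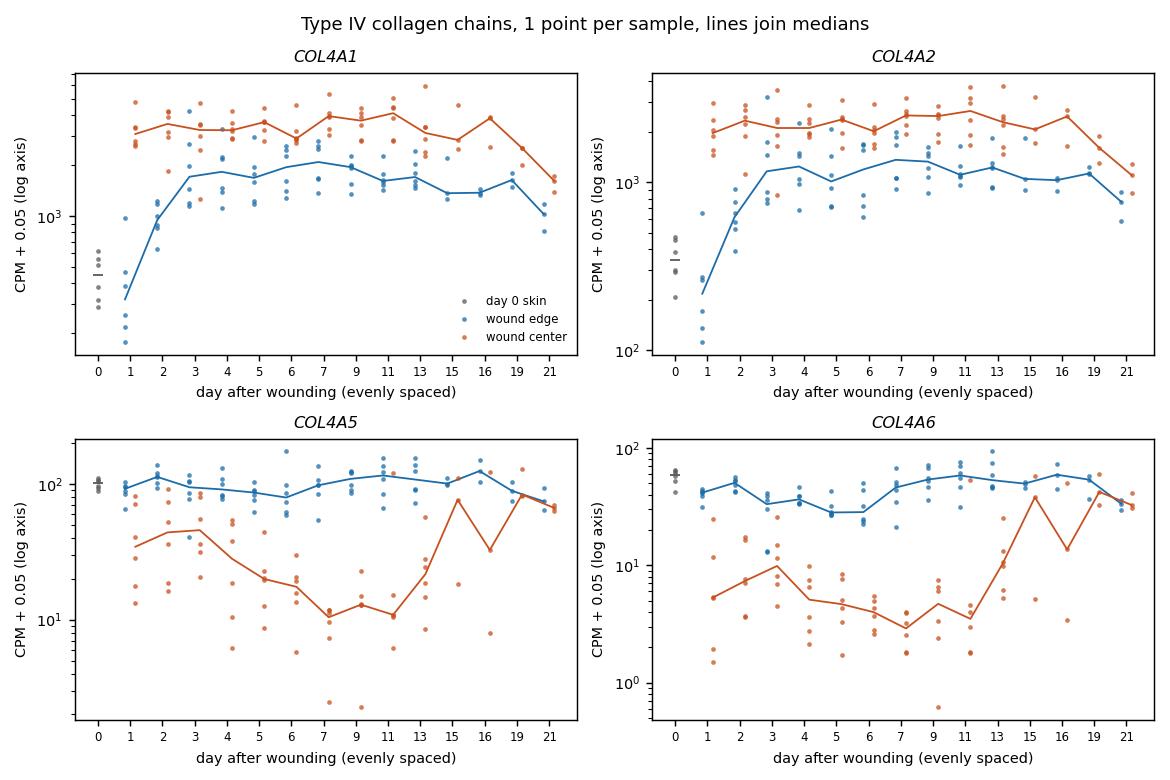
CPM of the type IV chains by day after wounding. Each point is 1 sample, the vertical axis is logarithmic and shows CPM + 0.05, days are evenly spaced, and lines join the medians of day 0 skin (grey), wound edge (blue) and wound center (orange). COL4A1 and COL4A2 run higher at the center, and COL4A5 and COL4A6 run higher at the edge until the center medians return to 83.6 and 42.0 CPM on day 19.

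Other proteins of basement membranes give context, from a list of 18 genes. Over 245 tests of edge against center, 50 were called edge-higher and 63 center-higher, against 12.5% and 11% of tests over all genes. PXDN, the peroxidase that makes the sulfilimine crosslinks of type IV collagen, was center-higher on 11 days (mean difference -1.12, SE 0.08, adjusted p = 3.1e-24), and its median went from 46.5 CPM in day 0 skin to 421 CPM at the day 1 center and 820 CPM at the day 7 center. The linker genes NID1 and NID2 were center-higher on 6 and 9 days, and HSPG2, which encodes perlecan, on 9 days. The laminin chain LAMA4, known from vessel basement membranes, was center-higher on 10 days (mean difference -0.90, SE 0.06). LAMA3 and LAMB3, laminin chains of epithelial basement membranes, were each edge-higher on 7 days, with mean differences of 2.72 (SE 0.25) and 2.45 (SE 0.25). The chains thus had non-collagen neighbours on both sides of the wound. Markers of blood vessel endothelium, 8 of 8 found, summed to 379 CPM in day 0 skin, 403 CPM at the day 1 edge, 1357 CPM at the day 1 center and 639 CPM at the day 21 center (medians), and 7 of the 8 were called center-higher over the 14 days. Adipocyte markers, which include genes of a cell type that also makes type IV collagen, summed to 529 CPM in day 0 skin and 8645 CPM at the day 1 center. The part of these cells in the COL4A1 and COL4A2 result was not tested.

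COL15A1, a multiplexin of the outer face of vessel and muscle basement membranes, moved much as COL4A1 did. It held 41.2 to 103 CPM in day 0 skin (median 56.8), 18.6 to 124 CPM at the day 1 edge (median 36.7) and 243 to 664 CPM at the day 1 center (median 343). Edge and center did not overlap on day 1, with a difference of -2.91 (SE 0.44, adjusted p = 0.00036). The center peaked on day 7 at 430 to 593 CPM (median 532), when the edge held 176 to 416 CPM. By day 21 the center samples held 207, 156 and 238 CPM, all above day 0 skin, and the edge samples 104, 111 and 197 CPM. It was center-higher on 9 days and in 71 of 72 wounds, with a mean difference of -0.98 (SE 0.08, adjusted p = 2.3e-20).

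COL18A1, the precursor of endostatin and a component of both epithelial and vascular basement membranes, began the other way round. Day 0 skin held 405 to 626 CPM (median 569). The day 1 edge, at 514 to 667 CPM, stayed at that level, and the day 1 center, at 197 to 346 CPM, lay below it without overlap (difference 1.26, SE 0.16, adjusted p = 0.00016). On day 2 the difference was 1.21 (SE 0.15, adjusted p = 3.7e-05). The center then rose by 2.02 from days 1 and 2 to days 7 and 9 (SE 0.14, adjusted p = 2.6e-25), and on day 15 it was the higher side, with 1567, 1152 and 1585 CPM against 807, 729 and 727 CPM at the edge (difference -0.996, SE 0.18, adjusted p = 0.024). The change of the edge-to-center difference from days 1 and 2 to days 11 and 13 was -1.58 (SE 0.19, adjusted p = 1.5e-10). Per length, COL15A1 was 0.106 of COL18A1 in day 0 skin (0.0648 to 0.216) and 1.21 of it at the day 1 center (1.15 to 2.38), where COL15A1 was above COL18A1 in all 6 samples.

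Of the main chains of collagen VI, COL6A1 and COL6A2 fell below day 0 skin on day 1 at both locations and COL6A3 at the edge, and all rose afterwards. COL6A1 was the member with the highest level per length in day 0 skin, with a median of 316 FPKM (241 to 527). In CPM it held 964 to 1906 in day 0 skin (median 1218), 159 to 573 at the day 1 edge (median 433) and 715 to 1351 at the day 1 center (median 941). The day 1 edge lay below all other samples of that day and below day 0 skin, with a difference of edge minus center of -1.16 (SE 0.29, adjusted p = 0.0064), and against day 0 it fell by 1.90 (SE 0.23, adjusted p = 4e-11). From days 1 and 2 to days 7 and 9 COL6A1 rose by 2.24 at the edge (SE 0.17) and by 2.17 at the center (SE 0.17). On day 11 the center held 3038 to 5554 CPM (median 4524) and the edge 2392 to 3342 CPM. By day 19 the locations no longer differed in order, at 3839, 3420 and 3482 CPM at the edge and 3719, 3758 and 3871 CPM at the center.

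COL6A2 followed COL6A1, and the ratio of COL6A1 to COL6A2 per length stayed between 1.61 and 2.67 in all 150 samples. Both were center-higher on 7 days, or 5 with the wound as a block, with mean differences over 14 days of -0.51 (SE 0.07) for COL6A1 and -0.53 (SE 0.07) for COL6A2. COL6A3, the chain whose cleaved end is released as endotrophin, was center-higher on 3 days, or 5 with the wound as a block, with a mean difference of -0.37 (SE 0.07, adjusted p = 2.7e-06). Its day 1 levels were 108 to 705 CPM at the edge and 1144 to 1498 CPM at the center, a difference of -1.84 (SE 0.34, adjusted p = 0.001). On day 1 the center of COL6A3 thus stood above the day 0 median of 909 CPM, whereas the center medians of COL6A1 and COL6A2 stood below theirs. Fibroblast markers, 7 of 7 found, summed to 3965 CPM in day 0 skin, 1438 CPM at the day 1 edge, 1619.9 CPM at the day 1 center and 5735 CPM at the day 11 center (medians). Their part in the rise of collagen VI was not tested.

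COL6A5 and COL6A6 did not move with the main chains, and COL6A4 is given with the other members. COL6A5, an alternative chain found in skin, held 3.36 to 13.2 CPM in day 0 skin and 1.29 to 33.7 CPM at the day 11 edge against 0 to 1.38 CPM at the day 11 center, a difference of 4.36 (SE 0.88, adjusted p = 0.0021). It was edge-higher on 8 days and in 66 of 72 wounds, and center states were below day 0 on 11 of 14 days. At the center its values of 0 to 6.46 CPM mean that each rests on few counts. COL6A6 changed sides. On day 1 it held 0.259 to 8.40 CPM at the edge and 29.8 to 57.7 CPM at the center, a difference of -3.35 (SE 0.57, adjusted p = 0.00068). On day 7 it held 4.86 to 37.4 CPM at the edge and 1.35 to 6.60 CPM at the center, a difference of 2.17 (SE 0.47, adjusted p = 0.0029). The change from days 1 and 2 to days 11 and 13 was 2.88 (SE 0.74, adjusted p = 0.0014). By edgeR in each set of animals alone, it was 4.90 (adjusted p = 1.8e-05) for days 1 and 11. For days 2 and 13 it was 0.86 (adjusted p = 0.71). The highest state of COL6A6 was the day 21 edge, with 162, 116 and 158 CPM. On day 11 its edge-higher call (1.53, SE 0.54, adjusted p = 0.036) was lost without center sample 1, at an adjusted p of 0.052.

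**Figure D2:**
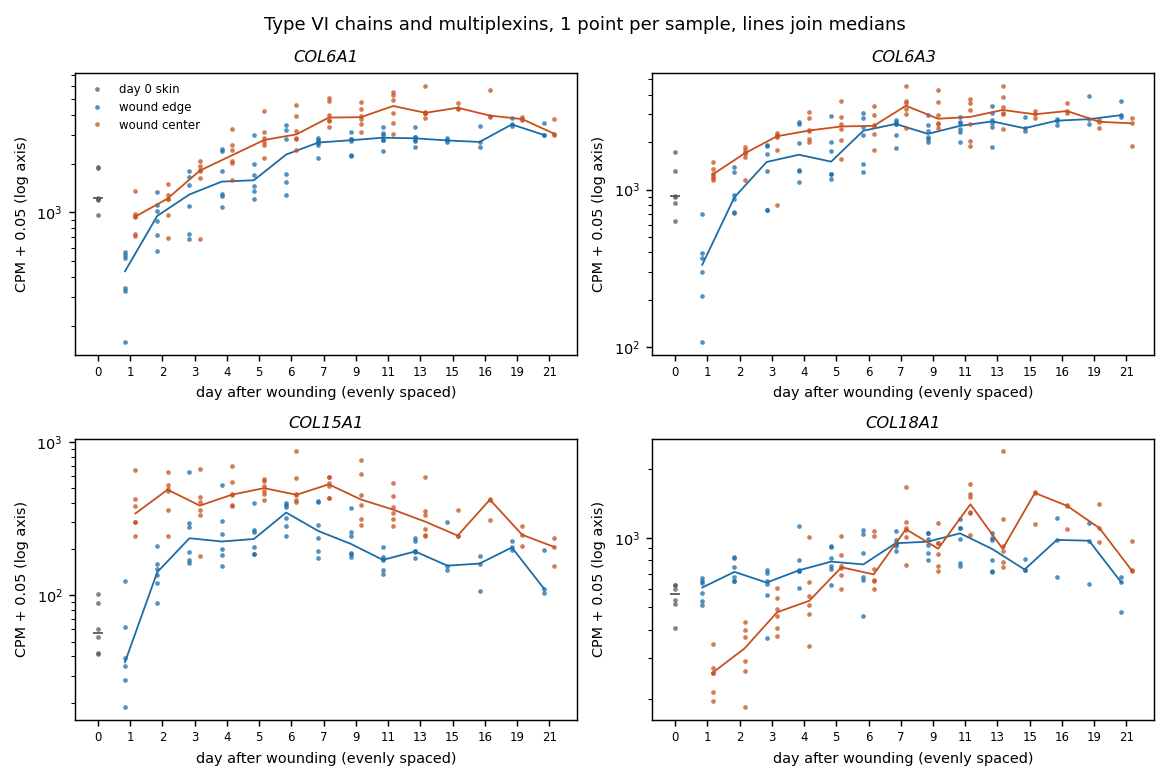
CPM of type VI chains and multiplexins by day after wounding. Points are samples, lines join medians, grey is day 0 skin, blue wound edge and orange wound center, and the vertical axis is logarithmic and shows CPM + 0.05. COL15A1 runs higher at the center in 71 of 72 wounds, COL18A1 starts lower at the center (197 to 346 CPM on day 1), and COL6A1 dips to 159 to 573 CPM at the day 1 edge before it rises.

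Collagen VIII was the network collagen with the widest range. COL8A2 held 18.6 to 49.6 CPM in day 0 skin (median 26.4). It fell to 0.511 to 6.05 CPM at the day 1 edge and to 0.0667 to 2.22 CPM at the day 1 center, both below all day 0 samples. The day 1 edge stood above the center by 2.70 (SE 0.77, adjusted p = 0.013) and the day 2 edge by 3.26 (SE 0.72, adjusted p = 0.0035). From days 1 and 2 to days 7 and 9 the center rose by 7.24 (SE 0.67, adjusted p = 1.6e-17) and the edge by 3.71 (SE 0.55, adjusted p = 1.7e-08). On day 15 the center held 205, 170 and 141 CPM, and on day 21 255, 186 and 146 CPM, all above day 0 skin. The early edge excess was lost with time, as the difference of edge minus center changed by -3.03 (SE 0.78, adjusted p = 0.0014). In the main fits only days 1 and 2 were called, and no day was called center-higher. With the wound as a block 1 day was center-higher, and by DESeq2 2 days were.

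COL8A1, the other chain of collagen VIII, rose later and without the early loss at the center. It held 3.20 to 17.8 CPM in day 0 skin, 0.801 to 9.72 CPM at the day 1 edge and 5.64 to 22.3 CPM at the day 1 center. On day 11 it held 26.0 to 59.9 CPM at the edge and 10.8 to 15.5 CPM at the center, without overlap and with a difference of 1.69 (SE 0.21, adjusted p = 0.00012), while on days 1 and 5 the center was higher (-1.70, SE 0.49, and -1.24, SE 0.37). With the wound as a block the center-higher days were 4 in place of 2. On day 21 it held 68.3, 190 and 73.1 CPM at the edge and 136, 113 and 94.1 CPM at the center, all above day 0 skin. COL10A1, the collagen of hypertrophic cartilage, did not exceed 1.10 CPM and was tested in no main edgeR comparison. DESeq2 tested it on 9 days and called 1 edge-higher. Its whole span of 7287 bases lies within NT5DC1 on the opposite strand.

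Among the fibril-associated collagens, COL16A1 and COL9A2 carried most of the counts. COL16A1, a fibril-associated collagen that also occurs near the dermal-epidermal junction, held 219 to 389 CPM in day 0 skin (median 298), 113 to 225 CPM at the day 1 edge and 98.4 to 137 CPM at the day 1 center. It then rose by 2.85 at the edge (SE 0.22, adjusted p = 3.4e-22) and by 3.63 at the center (SE 0.23, adjusted p = 6.1e-29) from days 1 and 2 to days 7 and 9. On day 19 it held 3808, 2830 and 3253 CPM at the edge and 3063, 2334 and 3842 CPM at the center, overlapping each other and all above day 0 skin, with log2 fold changes of 3.73 (SE 0.35) and 3.53 (SE 0.35) against day 0. Locations differed little: the mean over 14 days was -0.23 (SE 0.09, adjusted p = 0.017), and calls fell on days 1 and 2 (edge) and day 15 (center). The day 2 call (adjusted p = 0.044) was lost without center sample 2, at an adjusted p of 0.067.

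COL9A2, a chain of the collagen IX of cartilage, held 0.940 to 4.94 CPM in day 0 skin and was not called against day 0 before day 5. At the center it reached 3.09 to 31.1 CPM on day 5, 31.8 to 237 CPM on day 7 and 68.6 to 246 CPM on day 11, and the day 15 samples held 258, 202 and 198 CPM. The log2 fold change of the day 15 center against day 0 was 6.38 (SE 0.66, adjusted p = 7e-15). The edge rose less, to 9.83 to 46.8 CPM on day 7 and to 48.5, 9.51 and 7.47 CPM on day 15, where the difference was -3.34 (SE 0.82, adjusted p = 0.042). It was center-higher on 5 days, or 9 with the wound as a block, and in 54 of 72 wounds. Its partner chains stayed at low levels. COL9A1 stayed at or below 1.44 CPM and COL9A3 at or below 11.96 CPM in every library, and the ratio of COL9A2 to COL9A3 per length went from 1.04 (0.547 to 2.64) in day 0 skin to 93.7 (35.1 to 110) at the day 13 center. Markers of cartilage and bone, 5 of 5 found, summed to 89.2 CPM in day 0 skin and to between 0.915 and 3.48 CPM at the center on days 1 to 13 (medians). Their center medians were 12.5 CPM on day 15, 5.82 CPM on day 16, 13.1 CPM on day 19 and 32.6 CPM on day 21. Their edge medians lay between 12.4 CPM (day 6) and 63.0 CPM (day 15). All 4 markers tested were called edge-higher over the 14 days, the opposite side to COL9A2. Their part in the result was not tested.

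The remaining fibril-associated chains were low. COL21A1, expressed in vessel walls, held 7.65 to 14.5 CPM in day 0 skin, 0.708 to 4.67 CPM at the day 1 edge and 0.190 to 2.10 CPM at the day 1 center, a fall of 3.99 at the center against day 0 (SE 0.41, adjusted p = 2e-15). It was edge-higher on 6 days and in 63 of 72 wounds, with the largest difference on day 4 (2.19, SE 0.28, adjusted p = 5.6e-05). COL22A1, a collagen of tissue junctions, was called on day 11 alone of 6 days tested, with 1.04 to 8.78 CPM at the edge and 0.124 to 0.326 CPM at the center (3.93, SE 0.60, adjusted p = 0.00035). COL19A1 was called on none of 9 days tested and COL9A3 on none of 13 (1, edge-higher on day 9, with the wound as a block at an adjusted p of 0.033, and 1 by DESeq2), and COL20A1 did not exceed 2.02 CPM.

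Of the transmembrane collagens, COL23A1 fell. It held 11.0 to 19.6 CPM in day 0 skin, 5.74 to 9.14 CPM at the day 5 edge and 2.00 to 4.12 CPM at the day 5 center, so that the 3 groups did not overlap, with a day 5 difference of 1.29 (SE 0.22, adjusted p = 0.00043). On day 21 it held 2.98, 6.01 and 2.57 CPM at the edge and 1.73, 1.44 and 1.36 CPM at the center. It was lower than day 0 in all 14 center states and in 12 of 14 edge states, and edge-higher on 7 days and in 64 wounds. COL25A1, made mainly by neurons, did not exceed 0.841 CPM before day 13 and held 2.64, 4.04 and 5.20 CPM at the day 21 edge. It was called edge-higher on days 15 and 16 (2.45, SE 0.54, and 3.00, SE 0.71), the first of which was lost with the wound as a block (adjusted p = 0.057).

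The 3 others were COL26A1, COL6A4 and COL28A1. COL26A1, first described in testis and ovary, rose with time at both locations, from 4.57 to 12 CPM in day 0 skin to 139, 171 and 218 CPM at the day 19 edge and 52.7, 117 and 304 CPM at the day 19 center. It was called between edge and center on no day (1, edge-higher, with the wound as a block) and stood higher at each location in 36 of 72 wounds, whereas against day 0 it was called higher in 9 states of each location. COL6A4 rose from 0 to 0.313 CPM in day 0 skin to 4.19, 4.64 and 18.0 CPM at the day 21 edge, and was higher than day 0 in 12 edge and 14 center states. Its reference level rests on few counts, and fits of each pair of states alone called 5 and 5. COL6A4 was called edge-higher on 2 of 10 days tested, on 2 of them at least 2-fold. COL28A1, known from peripheral nerve, held 0.419 to 7.38 CPM in day 0 skin and was lower in 11 edge and all 14 center states. Its levels also rest on few counts, and fits of each pair of states alone called 11 and 10 lower. Schwann cell markers, 6 of 6 found, summed to 34.1 CPM in day 0 skin (median). Their medians in wound states ran from 3.94 CPM at the day 7 center to 28.5 CPM at the day 21 edge. Their part in the result was not tested.

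**Figure D3:**
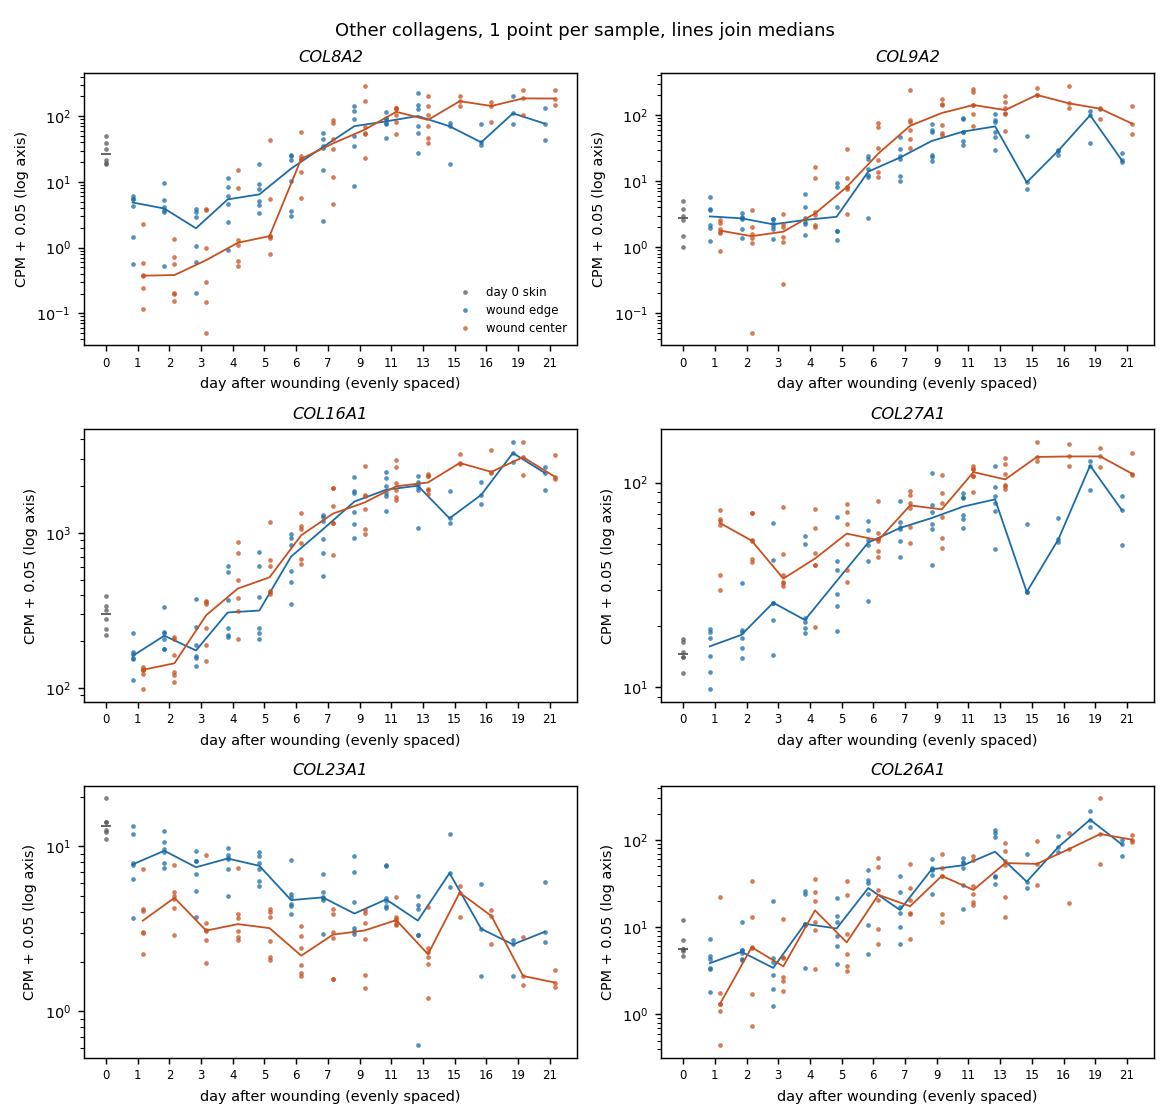
CPM of COL8A2, COL9A2, COL16A1, COL27A1, COL23A1 and COL26A1 by day after wounding. Points are samples, lines join medians, grey is day 0 skin, blue wound edge and orange wound center, and the vertical axis is logarithmic and shows CPM + 0.05. COL8A2 falls to 0.0667 to 2.22 CPM at the day 1 center before it rises, COL9A2 rises from day 5 at the center, and COL23A1 declines.

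Of the 4 fibril-forming chains kept by the rule, COL27A1 and COL24A1 rose. COL27A1, a fibrillar collagen of cartilage, held 11.7 to 17.2 CPM in day 0 skin, 9.73 to 19.1 CPM at the day 1 edge and 29.8 to 73.9 CPM at the day 1 center, which lay above the other 2 groups without overlap (difference -1.82, SE 0.25, adjusted p = 0.00023). On day 15 the center held 134, 158 and 128 CPM and the edge 62.7, 29.2 and 29.03 CPM (-1.84, SE 0.38, adjusted p = 0.029). It was center-higher on 5 days and in 64 wounds, and above day 0 in all 14 center states. COL24A1, known from developing bone, at 0.892 to 2.51 CPM in day 0 skin, reached 50.3, 29.4 and 27.8 CPM at the day 21 center and 12.5, 15.6 and 27.0 CPM at the day 21 edge, with no day called between locations. The cartilage chains stayed low, as COL2A1 did not exceed 1.81 CPM and COL11A2 did not exceed 3.12 CPM.

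Counted over the whole set, 327 tests of edge against center were possible, since 20 members passed the filter on all 14 days, 8 on some and 5 on none. Of these, 53 were called edge-higher (16.2%, against 12.5% of tests over all genes) and 58 center-higher (17.7%, against 11%). The edge-higher tests came from 13 members and the center-higher tests from 12. By family, type IV chains gave 18 edge-higher and 17 center-higher tests of 56, multiplexins 2 and 10 of 28, and transmembrane collagens 9 and 0 of 20. On day 19, 0 of the 25 members tested and 0 of 14413 genes were called by edgeR, with 479 genes at an unadjusted p below 0.05. On day 21 10 of 14621 genes were called, 0.0684% edge-higher and 0% center-higher, none of them a member. Between these extremes, members called edge-higher and center-higher numbered 7 and 9 of 22 on day 1 (24% and 22.6% of all genes), 8 and 5 of 24 on day 2 (17.8% and 17.7%), 5 and 0 of 21 on day 4 (16.4% and 11.4%) and 5 and 6 of 22 on day 5 (20.3% and 16.8%). They were 4 and 2 of 21 on day 6 (10.3% and 3.92%), 6 and 7 of 23 on day 7 (20.4% and 17.1%), 3 and 6 of 23 on day 9 (17.3% and 14.3%) and 9 and 7 of 24 on day 11 (20.6% and 22.9%). Later they were 2 and 5 of 23 on day 13 (16.6% and 11.8%), 3 and 6 of 25 on day 15 (7.55% and 9.81%) and 1 and 5 of 24 on day 16 (4.21% and 5.87%). On day 16 the center-higher members were COL4A1, COL4A2, COL15A1, COL9A2 and COL27A1. In the single fit over all days, 9 members were called edge-higher (32.5% of all genes) and 9 center-higher (33.8%), shares near those of all genes.

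**Figure D4:**
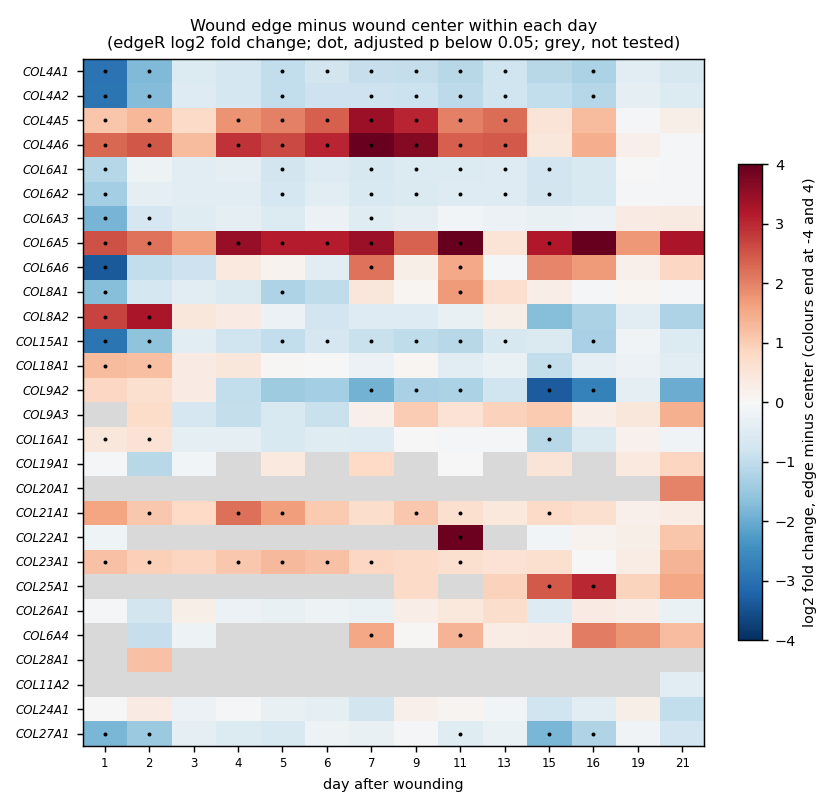
Log2 fold change of edge minus center on each day for the 28 members tested on at least 1 day. Red is higher at the edge, blue is higher at the center, colours end at -4 and 4, dots mark an adjusted p below 0.05 and grey marks no test. The rows of COL4A5, COL4A6 and COL6A5 are red and those of COL4A1, COL4A2 and COL15A1 blue on most days, and no dots stand on days 3, 19 and 21.

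The 28 comparisons with uninjured skin share the same 6 day 0 samples, so their calls are not independent of each other. At the center 173 of 448 member tests were called higher (38.6%, against 28.2% over all genes) and 101 lower (22.5%, against 27.5%). At the edge 156 were higher (34.8%, against 19.9%) and 52 lower (11.6%, against 14.6%). The order of days differed between locations. At the day 1 edge 0 members were higher and 12 lower, against 21.7% and 19.1% of all genes, while at the day 1 center 6 were higher and 13 lower, against 29.7% and 31%. By day 21 17 members were higher than day 0 and 1 lower at the edge, against 13% and 6.63% of all genes, and 17 higher and 3 lower at the center, against 19.2% and 16%. COL4A1, COL4A2 and COL15A1 were each higher in 13 edge and 14 center states.

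**Figure D5:**
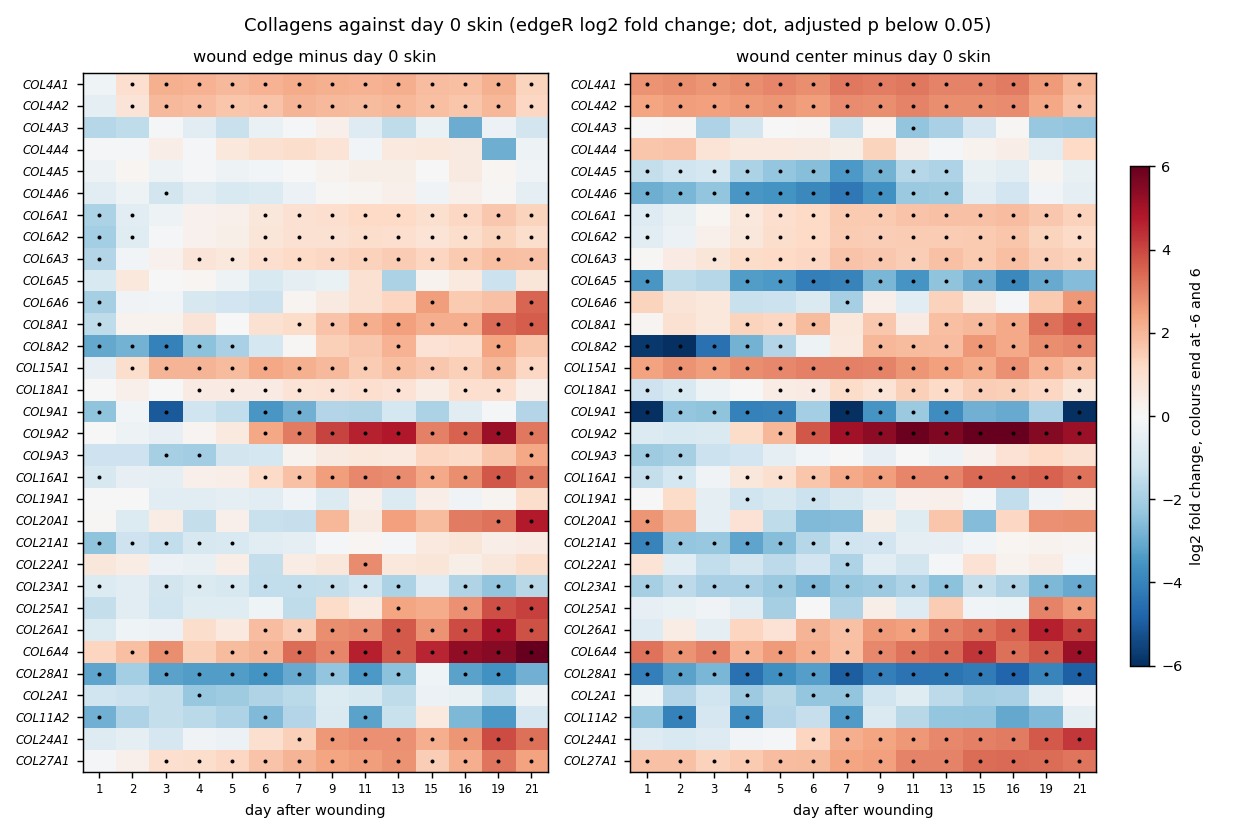
Log2 fold change of each wound state against day 0 skin for the 32 members tested, wound edge on the left and wound center on the right. Red is above day 0 skin, blue below, colours end at -6 and 6, and dots mark an adjusted p below 0.05. COL9A2, COL16A1 and COL26A1 turn red with time on both sides, COL23A1 and COL28A1 are blue nearly throughout, and COL4A5 and COL4A6 are blue at the center until day 13.

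Steps in time were tested on pairs of days that hold both sets of animals. At the center, 13 members rose from days 1 and 2 to days 7 and 9 (21.5% of all genes rose) and 6 fell (25.2%). At the edge 19 rose (18%) and 1, COL23A1, fell (14%). From days 7 and 9 to days 19 and 21, 14 rose at the center (20.2%) and COL4A1, COL4A2 and COL15A1 fell (20.8%), while at the edge 10 rose (6.82%) and 0 fell (9.81%; 0 by edgeR and 1 by DESeq2). COL9A3, COL16A1, COL24A1, COL26A1 and COL27A1 rose in all 4 steps. The median of the 32 members in the step at the edge from days 1 and 2 to days 7 and 9 was 1.56 on the log2 scale.

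Receptors that bind these collagens, a list of 10 genes, gave 17 edge-higher and 43 center-higher tests of 140, against 12.5% and 11% over all genes. DDR1, the discoidin receptor of epithelia, was edge-higher on 9 days (mean difference 2.26, SE 0.12), whereas DDR2, its counterpart in mesenchymal cells, was center-higher on 5 days (-0.46, SE 0.06). The integrin chains ITGA1 and ITGA2 also parted, ITGA1 being center-higher on 9 days (-0.91, SE 0.06) and ITGA2 edge-higher on 8 (1.10, SE 0.08). ITGA11, a collagen-binding integrin of fibroblasts, went from a median of 5.85 CPM in day 0 skin to 119 CPM at the day 7 center and 238 CPM at the day 21 center, and was center-higher on 5 days.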

How the data were processed

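Poly-A selected RNA from the biopsies was sequenced as paired reads, and the authors deposited a table of read counts per gene with an FPKM value beside each count. The aligner, the counter, its use of strand and the genome build are not given in the sources used here. The deposited FPKM values equal the counts divided by gene length and by a library total that was 0.845 to 1.31 times the sum of the deposited counts. CPM were computed from the sums of the counts, 13133379 to 24895572 per library, and that depth limits genes below about 1 CPM. All 150 samples were mapped to a state by day and location. Symbols came from the table's name column or, where it was empty, from the protein named in its description. The members and gene lists were chosen with earlier results of these data known.

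Counts were tested with edgeR 4.0.16 (R 4.3.3) by its quasi-likelihood test after filterByExpr (minimum count 10, minimum total 15) and TMM scaling, with Benjamini-Hochberg adjustment over all genes tested and a threshold of 0.05. Edge and center were compared in 14 fits, 1 per day. Day 0, steps in time and the mean over the 14 days came from 1 fit of the 29 states with 17916 genes and 32 members. Scripts were tested on simulated data. Figures used Python 3.11.15, pandas 2.3.3, numpy 2.4.6 and matplotlib 3.10.9. Type IV and VI chains, COL8A1, COL8A2, COL10A1, COL15A1, COL16A1, COL18A1, COL23A1, COL27A1 and any member called at least 2-fold between locations on at least 5 of the 14 days were to be given in full, and the others by ranges and counts. Values quoted for further members, and the days and contrasts quoted for each, were chosen after their values were seen.

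Edge and center numbers were paired by the animal and wound in the labels. Deviations of the paired samples from their state means correlated positively in 64 of 72 wounds (mean r 0.275 over 13704 genes), so a fit with the wound as a block was an alternative. Others were DESeq2 1.42.0, its size factors, no filter, the animal as a block, each set of animals alone, leaving out each replicate, and leaving out the libraries that stand apart, the last chosen after seeing the data. KRT14, FABP4 and KRT25 were not found under their symbols, so 6 of 7 keratinocyte, 5 of 6 adipocyte and 5 of 6 hair follicle markers were used. A result for 1 gene of the basement membrane list is not reported here.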

Additional observations from a re-analysis of the deposited data

Results flagged for a closer look

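The levels of some of the members and the members' share of counts were screened in groups of 6 samples. The screen looked for a sample whose gap to its nearest neighbour was large against the group's range. The other members were not screened, so they are not shown to be free of such samples. COL4A6 in day 11 center sample 1, described above, is for this reason not listed. Of 189 groups, 13 passed the critical ratio of 0.625, where chance alone, at about 1 in 20, gives 9.45.

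The members' share of counts in day 13 edge sample 6 was 1.73%, above its replicates (ratio 0.683). COL4A1 in day 6 center sample 2 was 4581 CPM against 2702 to 3214 CPM (ratio 0.671). COL4A5 was flagged in 3 center states: 2.40 CPM in day 7 sample 6 against 7.25 to 11.8 CPM (ratio 0.668), 2.22 CPM in day 9 sample 3 against 12.8 to 23.0 CPM (ratio 0.725) and 121 CPM in day 11 sample 1 against 6.13 to 15.2 CPM (ratio 0.711). The last is the sample with 23200 CPM of basal keratinocyte markers.

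COL6A1 was low in day 3 center sample 4 (688 CPM against 1633 to 2083 CPM, ratio 0.780) and in day 7 edge sample 1 (2178 CPM against 2610.0 to 2870.0 CPM, ratio 0.656), and high in day 13 center sample 4 (6006 CPM against 3832 to 4128 CPM, ratio 0.834). COL8A2 was high in day 1 center sample 5 (2.22 CPM against 0.0667 to 0.532 CPM, ratio 0.672). COL9A2 was low in day 6 edge sample 3 (2.72 CPM against 11.6 to 23.7 CPM, ratio 0.645). COL16A1 was low in day 1 center sample 2 (98.4 CPM, ratio 0.695) and in day 13 edge sample 4 (1072 CPM against 1882 to 2314 CPM, ratio 0.732). COL18A1 was low in day 3 edge sample 6 (369 CPM against 567 to 723 CPM, ratio 0.639), a sample that held 389 CPM of keratinocyte markers.

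The difference of edge minus center changed between days 1 and 2 and days 11 and 13 for 14 members, 11 toward the edge (15.6% of all genes) and 3 toward the center (13.5%). On the log2 scale the change was 1.41 for COL4A1, 1.39 for COL4A2, 1.39 for COL15A1, 1.28 for COL27A1, 1.08 for COL6A3, 2.88 for COL6A6, 2.38 for COL8A1 and 2.27 for COL6A4. It was -3.03 for COL8A2, -1.58 for COL18A1 and -1.76 for COL9A2. For 3 members at low counts it was 2.64 (COL4A3), 3.72 (COL20A1) and 1.91 (COL22A1), and with the wound as a block these lost the call, at adjusted p of 0.0545, 0.0614 and 0.0762 from edgeR. By edgeR in the animals of days 2 and 13 alone, COL4A1, COL4A2, COL15A1, COL27A1 and COL18A1 kept the call. There it was lost for COL6A3 (0.43, adjusted p = 0.37), COL8A1 (1.37, adjusted p = 0.17), COL6A4 (1.20, adjusted p = 0.29) and COL9A2 (-1.44, adjusted p = 0.21), among others. In the contrast with both sets all 8 endothelial markers (median 0.96) and all 5 adipocyte markers (median 4.40) also changed toward the edge. So did 4 of 8 skeletal muscle markers, whereas 5 of 6 basal keratinocyte markers changed toward the center. Their part in the result was not tested.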

How the results depend on the processing

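Depth limits the members below about 1 CPM, and 3 samples per location limit days 15 to 21. Per-day calls of higher at the center numbered 58 in the report and 36 to 57 with 1 replicate left out, the lowest without replicate 2. With the wound as a replicate block the per-day calls were 56 edge-higher and 70 center-higher, and without the libraries that stand apart 56 and 64. In the animals of days 2, 4, 6, 9, 13, 16 and 19 alone, the step to days 7 and 9 lowered 2 members at the center (6 with both sets), and the step to days 19 and 21 raised 8 and lowered 1 there (14 and 3) and raised 1 at the edge (10). That set also changed the edge-minus-center difference upward in 4 and downward in 1 (11 and 3), and COL22A1 turned sign in it, to 0.00696 for the center step (from -1.35) and to -0.30 for the change of the difference (from 1.91). At the edge, the step to days 7 and 9 lowered 0 members in each set alone (1 in both). Leaving out 1 replicate gave 2 to 6 members lower at the center on days 19 and 21, 5 to 12 higher at the edge (5 without replicate 3) and 3 to 5 with a downward change of the difference (5 without replicate 5). That last count was 5 with the replicate block, and DESeq2 called 1 member lower at the late edge (0 by edgeR). By the mean of log2(1 + CPM), 15 of 33 members had their highest state at the center, or 13 after TMM scaling and 12 by FPKM. Wound states against day 0 gave 280 to 335 higher and 123 to 163 lower calls over the alternatives, against 329 and 153. The causes of these shifts were not tested.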
